A study of Mus musculus with 12 samples.

Results

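The transcripts of 9 enzymes of cholesterol synthesis were followed in mouse oocytes across the pubertal transition. The enzymes were chosen by gene symbol, Hmgcs1, Mvk, Pmvk, Fdps, Fdft1, Sqle, Lss, Cyp51 and Ebp, and all 9 were found among the 24562 genes in the count table. Each symbol was listed once. RNA-Seq was performed on 12 pools of 18 to 45 oocytes from CD-1 mice (an outbred stock), 3 pools in each of 4 cohorts. The mice were at postnatal day (PND) 13, 16 or 40. Those at PND 16 formed 2 cohorts by body weight, the lighter animals (PND 16 small) and the heavier ones (PND 16 large). All oocytes came from antral follicles of ovaries that had received no gonadotropins, were held in meiotic arrest with milrinone, an inhibitor of the oocyte phosphodiesterase, and were stripped of cumulus cells by pipetting. No mouse carried a modified gene. Oocytes of PND 13 and PND 16 small mice were grouped by the study as non-competent for meiosis, and those of PND 16 large and PND 40 mice as competent. Cohort was also age or body weight, and these cannot be told apart from competence. The 3 pools of a cohort were drawn from 3 mice, which limits how far the spread between pools stands for the spread between animals.

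Cholesterol synthesis starts from acetyl-CoA. A first arm builds mevalonate and turns it into farnesyl diphosphate, which also feeds protein prenylation, dolichol and coenzyme Q, and a second arm joins farnesyl units into squalene, closes the sterol rings and trims them to cholesterol. Genes of both arms are known targets of the transcription factor SREBP2, which is released from the endoplasmic reticulum when sterols are scarce and binds sterol regulatory elements (SRE) near gene starts. In the mouse follicle, cumulus cells are known to express this pathway strongly in response to factors that the oocyte secretes, and the oocyte is known to make little cholesterol itself and to depend on its cumulus cells for it.

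Upstream sequences from RefSeq (GRCm38.p6) were matched to 6 of the 9 enzymes in the table used here: Hmgcs1, Mvk, Pmvk, Lss, Cyp51 and Ebp. The 250 bases before the start of Hmgcs1, Pmvk and Cyp51 are shown because these were the enzymes that differed between cohorts by the criteria below. They lie at chr13:119690101-119690350 (plus strand), chr3:89454291-89454540 (plus strand) and chr5:4104698-4104947 (minus strand), and each is written along its gene. Capitals mark the SRE letters TCACNCCAC and the CCAAT box on either strand (ATTGG where it is read from the other strand).
Hmgcs1: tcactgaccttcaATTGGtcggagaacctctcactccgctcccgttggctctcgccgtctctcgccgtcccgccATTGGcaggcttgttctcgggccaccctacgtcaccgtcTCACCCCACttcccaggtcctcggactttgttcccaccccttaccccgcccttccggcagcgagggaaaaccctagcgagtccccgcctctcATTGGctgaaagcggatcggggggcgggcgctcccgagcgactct
Pmvk: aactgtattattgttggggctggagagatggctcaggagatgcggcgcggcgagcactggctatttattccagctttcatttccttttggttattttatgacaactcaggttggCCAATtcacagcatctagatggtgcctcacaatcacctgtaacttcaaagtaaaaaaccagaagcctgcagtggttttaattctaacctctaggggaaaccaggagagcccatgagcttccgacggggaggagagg
Cyp51: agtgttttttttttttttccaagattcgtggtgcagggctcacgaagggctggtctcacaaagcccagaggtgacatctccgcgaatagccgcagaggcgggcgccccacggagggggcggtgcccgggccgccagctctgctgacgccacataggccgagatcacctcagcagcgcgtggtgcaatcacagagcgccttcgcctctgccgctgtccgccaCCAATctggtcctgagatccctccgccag
The SRE letters were present in 1.05% of all 32851 upstream windows of this length, and among the 6 enzymes with a sequence in Hmgcs1 alone, where they began 137 bases before the start. CCAAT was present in 33.8% of all windows. Hmgcs1 held 3 copies, Mvk 5, Ebp 2 and Lss, Cyp51 and this Pmvk window 1 each, whereas a window at another RefSeq start of Pmvk held 0. That other window, at chr3:89459321-89459570, lies inside the Pmvk gene of the GENCODE M21 annotation. Which Pmvk start the oocytes use was not tested, so neither window is known to be the promoter in use. All starts here are those of RefSeq. By the GENCODE M21 annotation the Cyp51 gene begins inside its window, so that its CCAAT lies within that gene. A GC box (GGGCGG on either strand) was present in 32.7% of all windows and in those of Hmgcs1, Mvk, Lss, Cyp51 and Ebp, but in neither Pmvk window. No match of one of these motifs overlapped a match of another in the 3 sequences shown. These are matches of letters, and binding was not measured. For the SRE only the letters TCACNCCAC were searched, so an element with other letters would be missed. A window without a match was therefore not shown to lack an SRE.

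Total counts ranged from 17671193 to 27418358 per pool, with 9.17 to 50.6 units of chi-square per gene between pools of 1 cohort, more than sampling noise. Expression is given as CPM, the count of a gene scaled to a common total with TMM factors. The oocyte genes Gdf9, a secreted growth factor, and Zp3, a zona pellucida protein, lay at 3183 to 4073 and 1236 to 1935 CPM in the 12 pools, and all 14 oocyte markers examined were above 1 CPM in each pool. Granulosa and cumulus transcripts were unequal between pools. Foxl2, a granulosa transcription factor, was at 18.6, 0.391 and 20.0 CPM in replicates 1, 2 and 3 of PND 13 and at 1.02, 10.8 and 2.14 CPM in those of PND 16 small, against 1.73 to 3.11 CPM in the other 6 pools. PND 13 replicates 1 and 3 and PND 16 small replicate 2 are therefore named below wherever a result was examined without them. A pool with fewer granulosa cells and one with less RNA per granulosa cell cannot be told apart in such data.

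The 9 enzymes were transcribed at very unequal levels. Per kilobase of exon, so that genes of different length can be compared, Hmgcs1 stood highest and Ebp lowest, and their means over the 12 pools differed 702-fold. Hmgcs1, which condenses acetyl-CoA units into HMG-CoA at the head of the pathway, had a level of 224 ± 48.4 CPM per kb (SD, n = 12 pools), above 99.1% of the 13753 genes tested that had an exon length. Fdft1, squalene synthase and the first step committed to sterols, was second at 96.9 ± 14.9 CPM per kb, above 96.6% of genes. Hmgcs1 stands near the head of the first arm and Fdft1 at the head of the second, and together they gave 92.5% to 95.6% of the summed CPM of the 9 enzymes in a pool.

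A middle group was made up of Sqle, squalene epoxidase, at 8.60 ± 1.40 CPM per kb, Fdps, which makes farnesyl diphosphate, at 6.62 ± 1.05, and Lss, which closes squalene epoxide into lanosterol, at 4.86 ± 0.872. Their levels lay above 60.5%, 55.3% and 49.5% of genes. A low group held Cyp51, the lanosterol demethylase, at 1.10 ± 0.524 CPM per kb, the mevalonate kinase gene Mvk at 0.648 ± 0.298, the phosphomevalonate kinase gene Pmvk at 0.606 ± 0.407, and Ebp, a sterol isomerase, at 0.319 ± 0.155. Between neighbours in this order the pool values of Hmgcs1 and Fdft1, of Fdft1 and Sqle, and of Lss and Cyp51 did not overlap. All other neighbours overlapped, and Mvk was above Pmvk in only 8 of 12 pools.

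**Figure D1:**
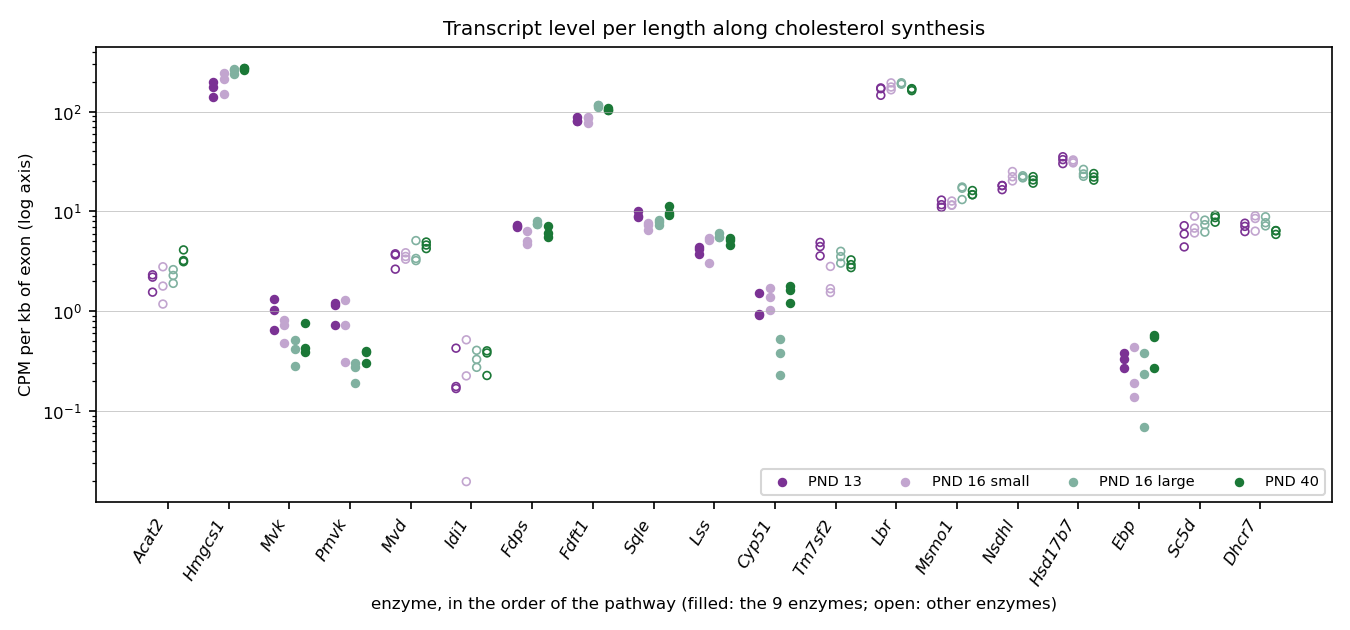
Level of enzymes in CPM per kb of exon (log axis), in the order of the pathway, with 1 point per pool, colours for the 4 cohorts, filled points for the 9 enzymes and open points for other enzymes. Hmgcs1 and Fdft1 stand above their neighbours in every pool, and Mvk, Pmvk, Cyp51 and Ebp lie below 2 CPM per kb.

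The other enzymes of the pathway were as uneven. Of 12 listed, Lbr, a sterol reductase that is also a protein of the inner nuclear membrane, had the highest level at 175 ± 14.8 CPM per kb. Idi1, which isomerizes isopentenyl diphosphate, was at 0.296 ± 0.140 and had 1 to 33 counts in a pool. The plot of levels along the pathway shows steps of high and low level beside each other in both arms.

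Cohorts were compared with edgeR's quasi-likelihood test on the counts, and p-values were adjusted by Benjamini-Hochberg across 13943 tested genes. The study's criteria were used: a gene was called when its adjusted p did not exceed 0.05 and it differed 1.5-fold or more. All 9 enzymes passed the filter on low counts. The 6 pairwise comparisons share pools with each other and with competent vs. non-competent, so their calls are not independent of one another.

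Cyp51 was lower in PND 16 large oocytes than in each other cohort. Its product FF-MAS is a sterol that was named for its effect on oocyte meiosis. Replicates 1, 2 and 3 were at 0.900, 2.05 and 1.51 CPM in PND 16 large oocytes, against 3.63, 5.98 and 3.73 CPM at PND 13, 4.08, 5.40 and 6.64 CPM in PND 16 small and 4.76, 7.01 and 6.39 CPM at PND 40. The 3 PND 16 large pools lay below the other 9, which overlapped one another. Cyp51 was 2.98-fold lower in PND 16 large than at PND 13 (log2 fold change -1.58, SE 0.34, edgeR adjusted p = 0.00501), and 3.60-fold lower than in PND 16 small (-1.85, SE 0.34, edgeR adjusted p = 0.00515). It was 4.06-fold higher at PND 40 than in PND 16 large (2.02, SE 0.34, edgeR adjusted p = 0.00438). PND 40 and PND 13 were not told apart (log2 difference 0.44, approximate 95% interval -0.30 to 1.19), nor were PND 40 and PND 16 small (0.17, interval -0.57 to 0.92). In competent vs. non-competent oocytes, where PND 16 large and PND 40 are pooled, the difference was -0.38 (interval -1.33 to 0.57, edgeR adjusted p = 0.532). The counts behind Cyp51 were 22 to 52 in PND 16 large and 76 to 176 in the other pools. Without the 3 pools rich in granulosa transcripts, Cyp51 in PND 16 large was lower than at PND 13 (log2 fold change -2.00, edgeR adjusted p = 0.0183), with PND 13 represented by 1 pool that was assumed to vary like the others. Akap9 overlaps Cyp51 on the opposite strand, and the strand setting of the counting is not given in the sources used here.

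Pmvk, which adds the second phosphate to mevalonate, was lower in competent oocytes. Replicates 1, 2 and 3 were at 1.24, 1.95 and 2.09 CPM at PND 13, at 2.24, 1.23 and 0.534 CPM in PND 16 small, at 0.327, 0.474 and 0.518 CPM in PND 16 large and at 0.515, 0.677 and 0.661 CPM at PND 40. The 6 competent pools lay below 5 of the 6 non-competent pools, and the exception was PND 16 small replicate 3. Pmvk was 2.92-fold lower in competent than in non-competent oocytes (log2 fold change -1.54, SE 0.38, edgeR adjusted p = 0.00686). It was 3.97-fold lower in PND 16 large than at PND 13 (-1.99, SE 0.55, edgeR adjusted p = 0.0176) and 2.84-fold lower at PND 40 than at PND 13 (-1.50, SE 0.53, edgeR adjusted p = 0.0445). Against PND 16 small, edgeR called neither PND 16 large nor PND 40 with all pools. For PND 16 large vs. PND 16 small, the log2 fold change was -1.97 to -1.01 over 19 alternatives (edgeR, DESeq2 or limma adjusted p = 0.0294 to 0.260). These values rest on 8 to 51 counts in a pool. The call at PND 40 was lost when any of PND 13 replicates 2 and 3 or the 3 PND 40 pools was left out (edgeR adjusted p = 0.0830 to 0.131). The call in PND 16 large vs. PND 13 was lost without PND 13 replicate 3 or PND 16 large replicate 1 (edgeR adjusted p = 0.0643 and 0.0755). Without the 3 pools rich in granulosa transcripts both calls were lost with no smaller difference, at a log2 fold change of -1.65 for PND 40 and -2.13 for PND 16 large (edgeR adjusted p = 0.163 and 0.0915), with PND 13 represented by 1 pool. The call in competent vs. non-competent oocytes was kept in all 25 alternatives run, among them the one without the 3 pools rich in granulosa transcripts (edgeR adjusted p = 0.0359).

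Mvk, the kinase one step earlier, had values on the same side that edgeR did not call with all pools. It was at 1.29, 2.03 and 2.62 CPM in replicates 1, 2 and 3 of PND 13, at 1.46, 1.61 and 0.949 CPM in PND 16 small, at 1.02, 0.829 and 0.557 CPM in PND 16 large and at 0.858, 1.51 and 0.772 CPM at PND 40. Pools of PND 13 and PND 16 large did not overlap, and those of the competent and non-competent groups did. The log2 difference was -1.30 in PND 16 large vs. PND 13 (SE 0.46, edgeR adjusted p = 0.0536) and -0.84 in competent vs. non-competent oocytes (SE 0.33, edgeR adjusted p = 0.0656). DESeq2 called Mvk lower in both (adjusted p = 0.0321 and 0.0387). In PND 16 large vs. PND 13 it was also called by edgeR with total counts as the scaling, with a filter of 1 CPM in 3 pools and without PND 13 replicate 1 (edgeR adjusted p = 0.0437, 0.0488 and 0.0442), and in competent oocytes without PND 16 small replicate 3 or PND 40 replicate 2 (edgeR adjusted p = 0.0318 and 0.0411).

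Hmgcs1 was higher at PND 40 than at PND 13. Replicates 1, 2 and 3 were at 686, 486 and 615 CPM at PND 13, at 520, 846 and 743 CPM in PND 16 small, at 901, 822 and 921 CPM in PND 16 large and at 909, 955 and 960 CPM at PND 40. Every competent pool except PND 16 large replicate 2 was above every non-competent pool, and that pool was below PND 16 small replicate 2 alone. Hmgcs1 was 1.58-fold higher at PND 40 than at PND 13 (log2 fold change 0.66, SE 0.16, edgeR adjusted p = 0.00747). In PND 16 large vs. PND 13 it was 1.48-fold higher (edgeR adjusted p = 0.0214) and in competent vs. non-competent oocytes 1.40-fold higher (edgeR adjusted p = 0.00531), which passed the adjusted p but not the 1.5-fold criterion. In PND 40 vs. PND 16 small Hmgcs1 missed the adjusted p with all pools and in 14 of 19 alternatives (log2 fold change 0.25 to 0.58 over the 19). In PND 40 vs. PND 16 large it was not called. PND 13 replicate 2 was the pool with the lowest Hmgcs1 and the least Foxl2. Without it the difference in PND 40 vs. PND 13 was 0.51 on the log2 scale (edgeR adjusted p = 0.0246), under 1.5-fold. In PND 16 large vs. PND 13 it was 0.42 (edgeR adjusted p = 0.0642). The difference in PND 16 large vs. PND 13 also missed the adjusted p without PND 13 replicate 3 (0.59, edgeR adjusted p = 0.0588) and without PND 16 large replicate 1 or 3 (0.54 and 0.52, edgeR adjusted p = 0.0730 and 0.0717). With the granulosa marker level as a covariate Hmgcs1 was called higher there (0.69, edgeR adjusted p = 0.000284). Without the 3 pools rich in granulosa transcripts the difference was 0.96 at PND 40 vs. PND 13 (edgeR adjusted p = 0.00526), and Hmgcs1 was also called higher in PND 16 large vs. PND 13 (0.86, edgeR adjusted p = 0.0130) and in competent vs. non-competent oocytes (0.65, edgeR adjusted p = 0.00340).

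Fdft1 was higher in competent oocytes, by less than 1.5-fold. Replicates 1, 2 and 3 were at 301, 323 and 295 CPM at PND 13, at 319, 329 and 286 CPM in PND 16 small, at 431, 436 and 409 CPM in PND 16 large and at 388, 401 and 383 CPM at PND 40. The 6 competent pools were all above the 6 non-competent pools, and Fdft1 was the only one of the 9 enzymes with this separation, which 14.7% of all genes tested showed. It was 1.32-fold higher in competent oocytes (log2 fold change 0.40, SE 0.06, edgeR adjusted p = 0.00018). Between cohorts it was 1.39-fold higher in PND 16 large than at PND 13 (edgeR adjusted p = 0.000574) and 1.37-fold higher than in PND 16 small (edgeR adjusted p = 0.00232). PND 16 small and PND 13 differed by 0.02 on the log2 scale (approximate 95% interval -0.13 to 0.18). Ctsb, a lysosomal protease gene, overlaps Fdft1 on the opposite strand.

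**Figure D2:**
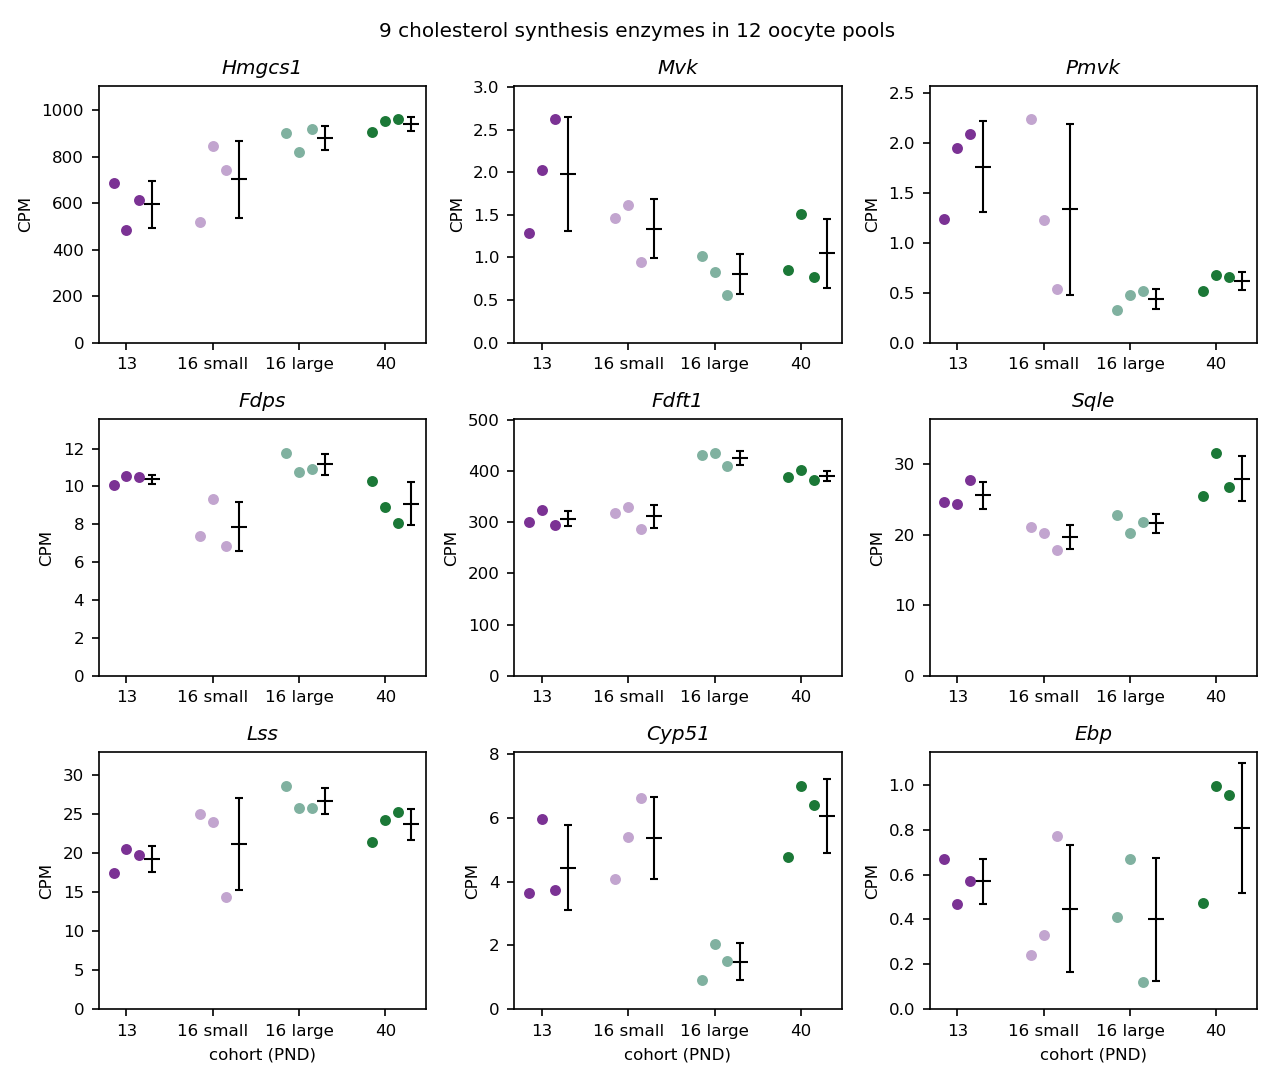
CPM of each of the 9 enzymes (vertical axes start at 0) in each pool of the 4 cohorts, with replicates 1, 2 and 3 from left to right and the mean ± SD (n = 3) beside them. The 3 PND 16 large pools are lowest for Cyp51, and the 6 competent pools are highest for Fdft1.

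The remaining enzymes were called by edgeR in no comparison of all pools. Sqle was at 24.6, 24.3 and 27.8 CPM in replicates 1, 2 and 3 of PND 13, at 21.1, 20.2 and 17.9 CPM in PND 16 small, at 22.8, 20.2 and 21.8 CPM in PND 16 large and at 25.4, 31.6 and 26.8 CPM at PND 40. Both PND 16 cohorts lay below PND 13 and PND 40. Only PND 40 vs. PND 16 small passed the adjusted p, at 1.42-fold higher (log2 fold change 0.50, SE 0.12, edgeR adjusted p = 0.00756).

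Fdps was at 10.1 to 10.6 CPM at PND 13, between 6.88 and 9.34 CPM in PND 16 small, between 10.8 and 11.8 CPM in PND 16 large and at 8.08 to 10.3 CPM at PND 40. The PND 16 small pools were below those of PND 13 and PND 16 large, with edgeR adjusted p = 0.216 and 0.0647. Fdps was called higher in PND 16 large than in PND 16 small without PND 16 small replicate 2 (log2 fold change 0.65, edgeR adjusted p = 0.0283) and without the 3 pools rich in granulosa transcripts (0.65, edgeR adjusted p = 0.0397). Lss was at 17.4 to 20.5 CPM at PND 13, between 14.4 and 25.0 CPM in PND 16 small, between 25.7 and 28.6 CPM in PND 16 large and 21.4 to 25.3 CPM at PND 40. Its log2 difference was 0.32 in competent vs. non-competent oocytes (SE 0.13, edgeR adjusted p = 0.0718).

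Ebp, the lowest of the 9, was at 0.469 to 0.669 CPM at PND 13, between 0.243 and 0.771 CPM in PND 16 small, between 0.119 and 0.671 CPM in PND 16 large and 0.472 to 0.995 CPM at PND 40. It had 3 to 26 counts in a pool, and the 3 counts of PND 16 large replicate 3 have an exact 95% Poisson interval of 0.619 to 8.77, which covers counting error only. No difference was detected for Ebp, with an interval of -0.86 to 1.36 on the log2 scale for competent vs. non-competent oocytes. That interval leaves room for a difference in either direction. A paralogue, Ebpl, is counted as a separate gene.

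At most 2 of the 9 enzymes were called in a comparison. In PND 16 small vs. PND 13, 0 of 9 enzymes were called by edgeR, and 0 of the 7 that DESeq2 gave an adjusted p, with 2 at an unadjusted edgeR p under 0.05, where 0.179% of all genes tested were called higher and 0.194% lower. In PND 16 large vs. PND 13, 2 were called, Pmvk and Cyp51, both lower, against 3.52% of all genes called higher and 9.80% lower. In this comparison the pools of 8 of the 9 enzymes did not overlap, with Hmgcs1, Fdft1, Fdps and Lss higher and Mvk, Pmvk, Cyp51 and Sqle lower in each PND 16 large pool, where 45.5% of all genes did not overlap in either direction. PND 40 vs. PND 13 had 1 higher, Hmgcs1, and 1 lower, Pmvk, against 6.31% and 12.6% of all genes. The comparison of PND 16 large with PND 16 small had 1 lower, Cyp51, against 1.43% of all genes higher and 4.76% lower. PND 40 vs. PND 16 small had 0 called by edgeR or DESeq2, with 3 at an unadjusted edgeR p under 0.05, against 6.89% of all genes higher and 10.3% lower. PND 40 vs. PND 16 large had 1 higher, Cyp51, against 2.34% higher and 1.32% lower. In competent vs. non-competent oocytes 1 was lower, Pmvk, against 3.78% of all genes higher and 11.2% lower. The share of the 9 that was called was above that of all genes in 4 of the 7 comparisons, with 1 or 2 enzymes behind it. The median log2 fold change of the 9 was 0.15 in competent vs. non-competent oocytes, against -0.00458 for all genes, and between -0.36 (PND 16 small vs. PND 13) and 0.37 (PND 40 vs. PND 16 large) in the pairwise comparisons.

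Each arm held values of both signs. For competent vs. non-competent oocytes the 4 enzymes of the mevalonate arm had a median log2 fold change of -0.35, from -1.54 for Pmvk to 0.49 for Hmgcs1, and the 5 of the sterol arm a median of 0.25, from -0.38 for Cyp51 to 0.40 for Fdft1.

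**Figure D3:**
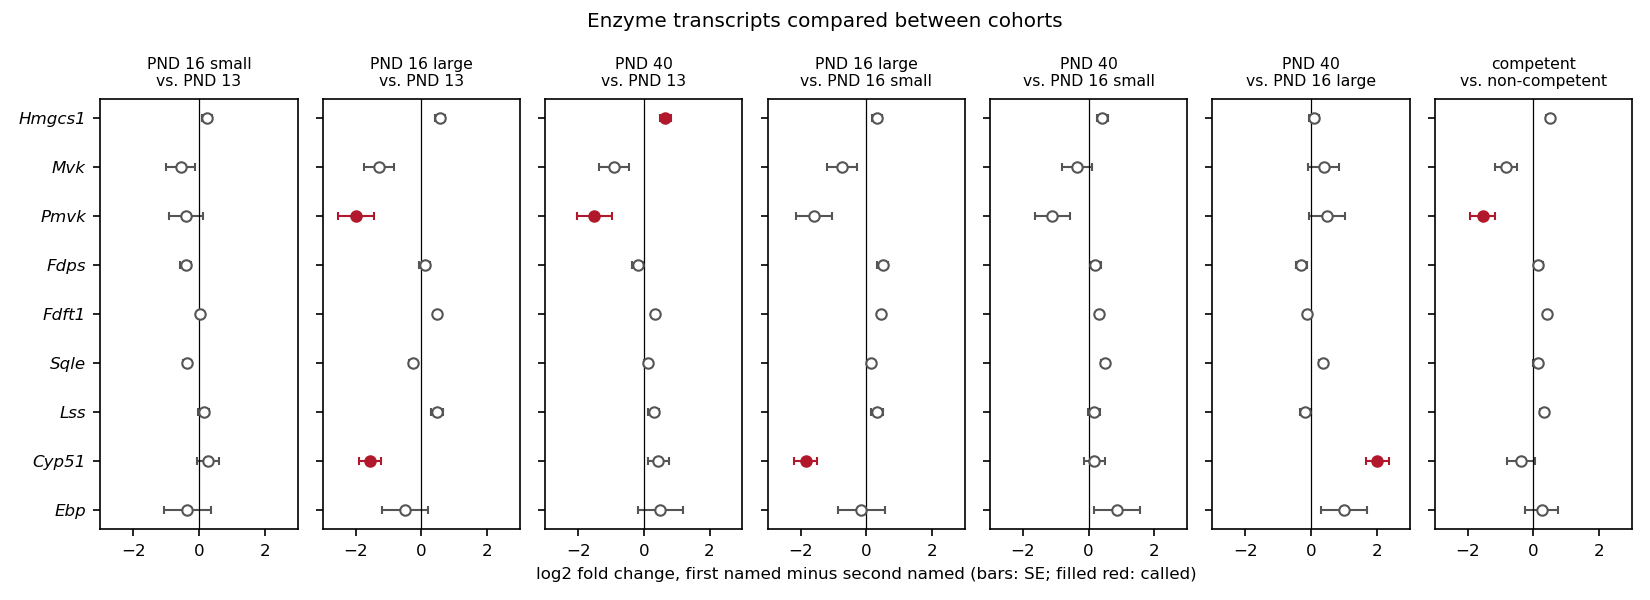
Log2 fold change (first named minus second named) of each enzyme in the 7 comparisons, with bars for the SE and filled red points for enzymes that were called. Cyp51 is called in each of the 3 comparisons with PND 16 large, where it was lower, and Pmvk is called lower in 3 comparisons.

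Most other genes of the pathway were not called, and neither were most of all genes tested. Their median log2 fold change in competent vs. non-competent oocytes was 0.13 for 12 other synthesis enzymes, 0.15 for 7 genes of SREBP regulation, -0.21 for 13 genes of uptake, storage and efflux and 0.13 for 7 genes of the isoprenoid branch. Of the 12 other synthesis enzymes, 1 was called in any pairwise comparison, Acat2, which makes acetoacetyl-CoA, at 8.69 ± 1.35 CPM at PND 40 and 4.78 ± 2.03 CPM in PND 16 small (SD, n = 3 each; log2 fold change 0.86, SE 0.29, edgeR adjusted p = 0.0387). In PND 40 vs. PND 16 small 6.89% of all genes tested were called higher. Dhcr7, a sterol reductase, ranged from 19.5 to 29.9 CPM over the 12 pools, and its log2 difference was -0.08 in competent vs. non-competent oocytes (interval -0.35 to 0.19).

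Of 7 genes of SREBP regulation, Srebf2, which encodes SREBP2, ranged from 25.7 to 39.9 CPM and was not called (0.15, interval -0.09 to 0.40). Mbtps1 and Mbtps2 encode the proteases that release SREBP. Mbtps2 was higher in PND 16 small and PND 16 large than at PND 13 (95.7 ± 11.9 and 105 ± 3.94 against 63.7 ± 6.14 CPM, edgeR adjusted p = 0.0309 and 0.000439). Mbtps1 was lower at PND 40 (65.5 ± 2.68 CPM) than at PND 13 (105 ± 7.07 CPM, edgeR adjusted p = 0.000309) and PND 16 small (103 ± 16.3 CPM, edgeR adjusted p = 0.000475). Insig2, which retains SREBP when sterols are plentiful, was lower at PND 40 (6.23 ± 1.93 CPM) than at PND 13 (12.5 ± 1.61 CPM, edgeR adjusted p = 0.0466).

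Of 14 genes of sterol uptake, storage and efflux, 13 passed the filter. Apoe, a carrier of lipids, was lower at PND 40 than at PND 13 (3.04 ± 0.645 against 6.15 ± 0.999 CPM, edgeR adjusted p = 0.00682) and than in PND 16 small (5.68 ± 1.11 CPM, edgeR adjusted p = 0.0149), and lower in competent than in non-competent oocytes (1.57-fold, edgeR adjusted p = 0.0232). Abca1, a sterol exporter, was lower at PND 40 than at PND 13 (0.975 ± 0.508 against 6.24 ± 3.82 CPM, edgeR adjusted p = 0.0257), and Stard4, a sterol carrier, lower at PND 40 than in PND 16 small (58.4 ± 11.2 against 96.7 ± 18.8 CPM, edgeR adjusted p = 0.0381). Abca1 ranged from 0.600 to 9.12 CPM over all pools, and PND 13 replicates 1 and 3 were rich in granulosa transcripts. The part of follicle cells in the differences of Apoe, Abca1 and Stard4 was not tested. Of 7 genes that draw on the farnesyl branch, Ggps1, which makes geranylgeranyl diphosphate for prenylation, was lower at PND 40 (8.10 ± 0.699 CPM) than in PND 16 small (16.3 ± 3.76 CPM, edgeR adjusted p = 0.00103) and PND 16 large (14.3 ± 0.775 CPM, edgeR adjusted p = 0.0147).

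Follicle-cell transcripts were set beside the enzymes because the pathway is active in cumulus cells. The 16 granulosa and cumulus markers summed to 219 to 716 CPM at PND 13, between 273 and 819 CPM in PND 16 small, between 339 and 357 CPM in PND 16 large and 311 to 340 CPM at PND 40. Between 9 and 16 of the 16 were at 1 CPM or more at PND 13, 10 to 14 in PND 16 small, 14 in PND 16 large and 13 at PND 40, and of the defining markers Foxl2, Amh and Fshr none was at 0 in a pool. Slc38a3 had 0 counts in PND 13 replicate 2 and PND 16 small replicate 1, and Gatm in replicate 1 of PND 16 large and of PND 40. Amh, the anti-Müllerian hormone of granulosa cells, was at 33.5, 1.02 and 30.3 CPM in replicates 1, 2 and 3 of PND 13 and at 0.389, 32.0 and 9.02 CPM in those of PND 16 small, the same pools that were high in Foxl2. Amh was at 2.82 to 10.1 CPM in the 6 competent pools. Fshr, the receptor for follicle-stimulating hormone, was at 0.386 to 4.25 CPM. Esr2, Nr5a2 and Cyp19a1, which are also on the list, stayed within 2.00-fold between pools and did not follow Foxl2. In competent vs. non-competent oocytes 3 of the 16 markers were called lower and 0 higher, with a median log2 fold change of -1.47. Of all genes tested, 11.2% were called lower there and 3.78% higher. The non-competent pools were not uniformly richer: PND 13 replicate 2 and PND 16 small replicate 1, at summed 219 and 273 CPM, lay below every competent pool. The theca marker Cyp17a1 had 0 to 6 counts in a pool. The 10 theca and stroma markers summed to 8.04 to 49.6 CPM, with the highest sum in PND 16 large replicate 2. Of the 6 blood and endothelium markers, the haemoglobin genes Hbb-bs and Hba-a1 had 0 counts in each pool. The 6 nevertheless summed to 52.2 to 64.6 CPM in a pool. Only 1 or 2 of them reached 1 CPM in a pool, and 1 of the 6 passed the filter on low counts. In PND 16 large replicate 3, where the sum was 64.6 CPM, Pecam1 was the only marker of this list with a count.

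Among pools of 1 cohort, no enzyme passed adjustment over the 9 in its correlation with the granulosa marker level (mean log2 CPM of the 16 markers). Hmgcs1 was nearest, with Pearson's r = 0.864 over the 12 pools after centring on cohort means (exact permutation p = 0.0417, adjusted p = 0.375) and Spearman's rho = 0.563 (exact permutation p = 0.104, adjusted p = 0.894). The permutations were two-sided and of the pools within cohorts, in 1296 orders of the 12 pools. The marker level varied little within PND 16 large (2.35 to 2.63) and PND 40 (2.22 to 2.63). PND 13 replicates 1 and 3 were also alike (4.32 and 4.34), so many orders gave nearly the same r. This test could therefore miss a true relation, and no conclusion is drawn from the lack of a pass. Without PND 13 replicates 1 and 3, the 2 pools farthest from the median marker level, r was 0.875 with an exact permutation p of 0.282. For Cyp51, Pmvk and Fdft1, r was -0.200, -0.262 and -0.212 (exact permutation p = 0.610, 0.616 and 0.685, each adjusted p = 0.881). Over the other 5 enzymes r lay between -0.119 and 0.298. Within PND 13, Hmgcs1 was at 686 and 615 CPM in the 2 pools rich in Foxl2 and at 486 CPM in the third, and within PND 16 small it was at 846 CPM in the pool rich in Foxl2 and at 520 and 743 CPM in the others. The PND 16 large and PND 40 pools had intermediate marker levels and 822 to 960 CPM of Hmgcs1, which overlapped the 846 CPM of the Foxl2-rich PND 16 small pool. The summed markers of the PND 16 large pools, where Cyp51 was lowest, were within the range of the other cohorts. That sum is weighted to Esr2, Nr5a2 and Cyp19a1, which did not follow Foxl2. The part of follicle cells in the level of any enzyme was not tested.

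**Figure D4:**
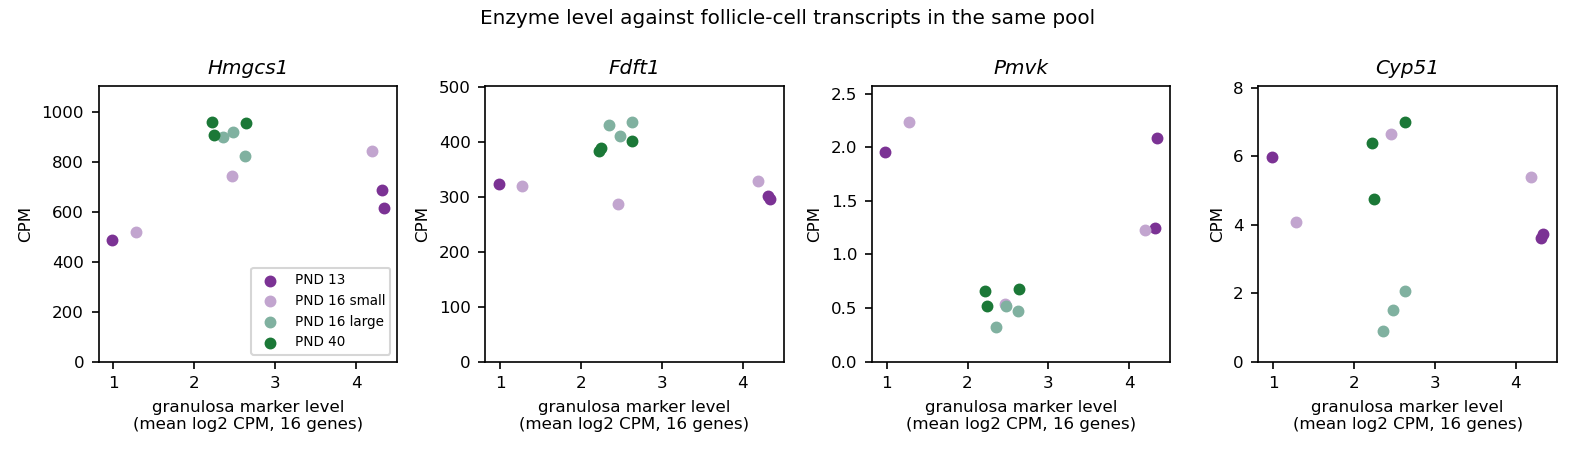
CPM of Hmgcs1, Fdft1, Pmvk and Cyp51 (vertical axes start at 0) against the granulosa marker level of the same pool, the mean log2 CPM of 16 genes, with 1 point per pool and colours for the cohorts. The 6 competent pools lie between 2.22 and 2.63 on the horizontal axis, and the non-competent pools spread from 0.985 to 4.34.

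The genes most alike in pattern were found by Pearson's correlation of log2 CPM over the 12 pools, among the 9236 or 9237 other genes whose mean reached 5 CPM. These correlations are descriptions, since the pools share cohorts and the best of many genes is always high. Hmgcs1 was most like Gm8801 (r = 0.970), Fdft1 most like Slc25a17 (r = 0.979), Pmvk most like Amacr (r = 0.963) and Lss most like Add1 (r = 0.934). Cyp51 was most like Ccdc3 (r = 0.903), Mvk most like Rabl6 (r = 0.902), Sqle most like Chd3os (r = 0.895), Fdps most like Tmem19 (r = 0.889) and Ebp most like Gstz1 (r = 0.860). None of these 9 was another enzyme of the pathway lists.

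By GENCODE M21 on GRCm38, the enzymes that were called lie at chr13:119690379-119708260 (Hmgcs1), chr3:89454541-89469013 (Pmvk) and chr5:4081145-4104746 (Cyp51), and Fdft1 at chr14:63145150-63179578. Counts were made per gene over these loci, so that exons and UTRs were not told apart. Gm48342 overlaps Hmgcs1 and 4930483K19Rik overlaps Lss on the opposite strand, and Gm43738 and Gm22935 overlap Fdps on its own strand. How reads of these overlaps were shared out is not given in the sources used here, so the levels of Hmgcs1, Lss, Fdps, Fdft1 and Cyp51 are uncertain by that amount.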

How the data were processed

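RNA was measured in 12 pools of oocytes, 3 in each of 4 cohorts that were taken from the sample labels. The authors depleted ribosomal RNA, made directional libraries, sequenced them on a HiSeq and analysed the reads on the Rosalind platform. The submitters' processing notes name FastQC, STAR, HTSeq, HOMER, DESeq and DESeq2 and the build mm10, while versions and the strand setting of the counting are not given in the sources used here. The authors deposited raw counts per gene, without normalization, and log2 values, made by dividing the counts by 1 factor per pool, adding 1 and taking the logarithm.

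From the counts, genes kept by edgeR's filterByExpr (minimum count 10) were tested in R 4.3.3 with edgeR 4.0.16: TMM scaling, 1 robust quasi-likelihood model of the 4 cohorts for pairwise comparisons and 1 of 2 groups of 6 pools for competence, with Benjamini-Hochberg adjustment. Standard errors and 95% intervals are approximate, from the log2 fold change and the F statistic. Log2 CPM used a prior count of 2. Exon lengths are unions of exons of GENCODE M21 protein-coding transcripts. Alternatives used DESeq2 1.42.0, limma 3.58.1, other scalings and filters, covariates, a replicate block and left-out pools. Python 3.11.15 with scipy 1.17.1 and matplotlib 3.10.9 was used for permutations and figures. Scripts were tested on simulated data. Counts carry no molecular identifiers, and the Poisson interval given for Ebp covers counting error only. The approximate intervals of log2 differences come from the quasi-likelihood fit, which includes the spread between pools.

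Named genes were the 9 enzymes, called genes of the other pathway lists (at most 4 of each list in a comparison), Srebf2 and Dhcr7, the gene most like each enzyme, and the markers Foxl2, Amh, Fshr, Cyp17a1, Gdf9 and Zp3. Some further genes that this rule names are not reported here. Lbr, Idi1, Esr2, Nr5a2, Cyp19a1, Slc38a3, Gatm, Hbb-bs, Hba-a1 and Pecam1 were named after their values were seen. Akap9, Ctsb, Ebpl, Gm48342, 4930483K19Rik, Gm43738 and Gm22935 were named for their locus or sequence. The enzymes, lists and tests were chosen with earlier results of these data known.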

Additional observations from a re-analysis of the deposited data

How the results depend on the processing

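Each enzyme's log2 fold change with an unadjusted p under 0.05 in a comparison kept its sign under every alternative run. The 3 calls of Cyp51 were kept under all 19 alternatives each, with edgeR, DESeq2 or limma adjusted p from 1.01e-06 to 0.0355. The number of enzymes called moved by over 1.5 times as follows. With no fold-change criterion it was 4 in PND 16 large vs. PND 13 (2 with the criterion), 2 in PND 16 large vs. PND 16 small (1), 2 in PND 40 vs. PND 16 small (0) and 3 in competent vs. non-competent oocytes (1). In PND 40 vs. PND 13 it was 1 in place of 2 without a filter on low counts and with limma at a pseudocount of 0.1, since Pmvk was lost. DESeq2 gave 2 in PND 16 large vs. PND 16 small, with Pmvk added, and 2 in competent vs. non-competent oocytes, with Mvk added, and the contrast of cohort means gave 2 there, Cyp51 and Pmvk. Scaled by total counts alone, the genes had a median log2 fold change of -0.132 in PND 16 large vs. PND 13 and of -0.124 in PND 16 small vs. PND 13, and in the latter 76.0% of the genes called were lower, against 51.9% with TMM. With the granulosa marker level as a covariate no count moved by over 1.5 times, and Hmgcs1 was gained in PND 16 large vs. PND 13 (3 enzymes). Mvk was gained there with DESeq2, total counts alone and a filter of 1 CPM in 3 pools (3 each).

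Leaving out 1 pool at a time gave 1 to 4 enzymes called in PND 16 large vs. PND 13, 0 to 2 in PND 40 vs. PND 13, 1 to 2 in PND 16 large vs. PND 16 small, 0 to 1 in PND 40 vs. PND 16 small and 1 to 2 in competent vs. non-competent oocytes. The 0 was reached without PND 13 replicate 2, the 4 without PND 13 replicate 1, and the 1 in PND 16 large vs. PND 13 without PND 13 replicate 3 or PND 16 large replicate 1. The 1 in PND 40 vs. PND 16 small (Pmvk, lower) was reached without PND 16 small replicate 3. PND 16 small replicate 2 (Fdps gained) or 3 (Pmvk gained) gave the 2 in PND 16 large vs. PND 16 small, and PND 16 small replicate 3 or PND 40 replicate 2 the 2 in competent vs. non-competent oocytes.

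Leaving out PND 13 replicates 1 and 3 and PND 16 small replicate 2 together was chosen after seeing the data and left PND 13 with 1 pool, assumed to vary like the others. It gave 2 enzymes called in PND 16 large vs. PND 13 (Hmgcs1 and Cyp51), 1 in PND 40 vs. PND 13 (Hmgcs1), 2 in PND 16 large vs. PND 16 small (Fdps and Cyp51) and 2 in competent vs. non-competent oocytes (Hmgcs1 and Pmvk), and 0 and 1 in PND 40 vs. PND 16 small and vs. PND 16 large. The replicate number as a block gave 1 enzyme in PND 40 vs. PND 13, where Pmvk was lost (edgeR adjusted p = 0.0750), and moved no other count by over 1.5 times. The labels give no sign that the numbers pair pools, and same-numbered pools deviated from their cohort means with correlations of -0.442 to 0.0753. No enzyme passed in the correlation with the granulosa marker level under any of 14 alternatives (lowest adjusted p = 0.250). Depth limits Mvk, Pmvk and Ebp most, with 64, 51 and 26 counts at most in a pool.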
